A study of Mus musculus with 12 samples.

Results

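Tumour tissue from brains of NMN-treated old mice was compared with tumour tissue from brains of untreated young mice. Nicotinamide mononucleotide (NMN) is a precursor of NAD, the coenzyme of redox metabolism and the substrate of sirtuins and PARP enzymes. The comparison used 6 of the 12 RNA sequencing libraries of the study, 3 per group, and all genes that reached a level of at least 1 CPM (counts scaled to a common library size) in at least 3 of these 6 libraries. This gave 14806 of the 24054 genes listed. The old hosts were female C57BL/6 mice of 16 months, supplied through the National Institute on Aging, that received NMN at 300 mg/kg/day, and the young hosts were untreated female C57BL/6 mice of 2 months from commercial breeders. All hosts carried mouse tumour cells injected into the striatum, named as the line ms7080 in the labels and as BC cells in the protocol text, and tissue was taken once symptoms appeared. Age, source of the animals and NMN all differ between these groups, so their parts in a difference cannot be told apart. The remaining 6 libraries, from untreated old hosts and from old hosts joined to a partner by parabiosis, entered the estimate of the spread and are given as levels where useful.

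The striatum is the largest input nucleus of the basal ganglia and is built mainly of GABA-releasing projection neurons, with astrocytes, oligodendrocytes and microglia among them. A tumour that grows there replaces and infiltrates this tissue, and a bulk sample holds RNA of tumour cells together with that of neurons, glia, vessels and immune cells of the host. In a bulk sample, fewer cells of a type and less RNA per cell of that type cannot be told apart.

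The 6 libraries held 18886642 to 23299125 recovered reads, so that 3 reads, taken as the detection limit (counting error alone), were worth 0.117 to 0.143 CPM. Untreated young replicate 3 stood apart from its group. Across the 14806 genes, which are not independent replicates, its log2 values had Pearson correlations of 0.9424 and 0.9363 with young replicates 1 and 2, which had a correlation of 0.9946 with each other. The 3 NMN libraries had correlations of 0.9474 to 0.9748 among themselves. A brain tissue score, the mean of the synaptic and myelin list scores (each the mean deviation of log2(CPM + 1) from the mean of the 6 libraries), was 1.43, 0.643 and 0.604 in NMN replicates 1 to 3, against -1.19, -1.47 and -0.0201 in young replicates 1 to 3. NMN replicate 3 stood apart for choroid plexus RNA, with Ttr, the thyroxine carrier of the choroid plexus, at 3.10, 0.622 and 841 CPM in NMN replicates 1 to 3, against 1.04, 0.429 and 115 CPM in young replicates 1 to 3. Markers of blood, muscle and skin were also summed, with totals over marker lists of 36.2 to 171 CPM in NMN tumours and 7.46 to 54.5 CPM in young tumours for red blood cells, and of at most 6.15 and 4.29 CPM for muscle and skin. Values below are given by library.

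Of the 14806 genes, 1096 were higher in NMN-treated old hosts and 161 were lower (limma on log2(CPM + 1), Benjamini-Hochberg adjusted p under 0.05, two-sided). These are 7.4% and 1.09% of all genes tested, and 87.2% of the calls were on the higher side, against 69.2% with quantile normalization and 74.6% with DESeq2. The differences were unequal in size as well as in number. The median log2 difference of the genes called higher was 1.70, with 898 above 1 and 403 above 2, whereas that of the genes called lower was -0.526, with 12 beyond 1 and 0 beyond 2. Over all genes the median log2 difference was -0.0174. All libraries of a group lay beyond those of the other for 2740 genes on the higher side (18.5%) and 1606 on the lower side (10.8%). An unadjusted p under 0.05 in limma was reached by 3819 of the 14806 genes, 2645 on the higher side and 1174 on the lower.

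The number of calls rested on the estimate of spread shared over 12 libraries and on single libraries. With the 6 libraries alone, limma called 28 genes higher and 2 lower. Leaving out NMN replicate 1 left 2 and 0 calls, and leaving out NMN replicate 3, young replicate 1 or young replicate 2 left 0 and 0, with 3346, 2758 and 2584 genes at an unadjusted p under 0.05. Without NMN replicate 2 there were 924 and 121 calls, of which 812 and 64 were among those reported, and without young replicate 3 there were 1727 and 416, of which 1046 and 120 were. Of the genes named in the text, Col16a1, Heyl, Nes, Siglech, Socs3 and Stk32b were not called without young replicate 3 (limma adjusted p = 0.0502 to 0.086), and Abat, Acta2, Ccr2, Cst7, Hspa5 and Mbp were called without it (limma adjusted p = 0.00596 to 0.0466, against 0.0527 to 0.133 with it). On the recovered reads edgeR called 392 genes higher and 58 lower, and DESeq2 called 1711 and 583. When the brain tissue score was entered as a covariate 0 genes were called, with the smallest adjusted p at 0.121 and 2680 genes at an unadjusted p under 0.05. Among the calls, 1094 of the 1096 higher and all 161 lower genes had every NMN library beyond every young library. For such genes the sign cannot turn when a library is left out, so a kept direction there is no test of the call. The edgeR and DESeq2 fits reused the same libraries. Every called gene kept its direction in each fit named in this paragraph except the covariate fit. In the covariate fit 874 of 1096 and 160 of 161 kept it. The score moved with the groups, and its part in the differences was not tested beyond this fit.

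**Figure D1:**
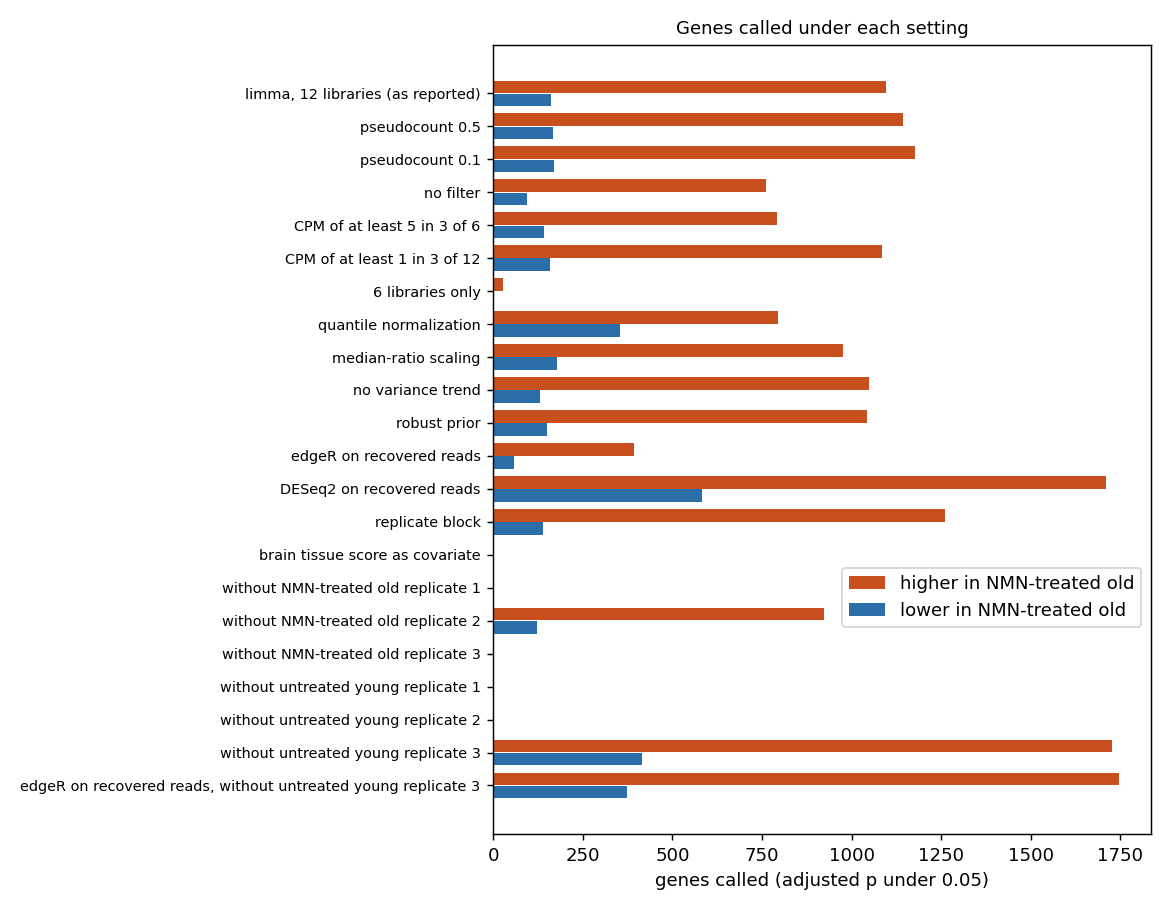
Number of genes called higher (orange) or lower (blue) in NMN-treated old than in untreated young hosts at an adjusted p under 0.05, under the reported fit and each alternative. The reported fit gave 1096 and 161 calls, and the counts ranged from 0 to 1727 and from 0 to 416 when a library was left out.

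Among the called genes the largest log2 difference was that of Slc6a11 (chromosome 6, 114131241 to 114249886, GRCm38), which encodes the GABA transporter GAT-3. It was at 37.9, 74.4 and 67.4 CPM in NMN tumours, against 4.50, 1.76 and 5.03 CPM in young tumours. The lowest NMN library was thus above the highest young library, with group means of 59.9 ± 19.4 CPM in NMN tumours, against 3.76 ± 1.75 CPM in young tumours (SD, n = 3 each) and a log2 difference of 3.70 ± 0.39 (SE, limma adjusted p = 0.02). Cpne4, a copine that binds membranes in response to calcium, followed a like pattern at 20.3, 42.4 and 18.2 CPM in NMN tumours, against 1.32, 0.143 and 3.71 CPM in young tumours. Its log2 difference was 3.49 ± 0.51 (limma adjusted p = 0.02). Other leading genes on this side were Rasgrf1, Fam107a, Meg3, Dpp10, Snhg11, Sez6l, Cpne6, Gria1 and Sncb, with log2 differences of 3.33 to 3.60. They include a subunit of AMPA-type glutamate receptors (Gria1), an auxiliary subunit of potassium channels (Dpp10), beta-synuclein (Sncb) and the long non-coding RNAs Meg3 and Snhg11. Rasgrf1, a calcium-dependent activator of Ras, was at 237, 108 and 128 CPM in NMN tumours, against 8.17, 3.43 and 45.7 CPM in young tumours. As in this gene, young replicate 3 was the highest young library for every gene named here.

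On the lower side S100a10 (chromosome 3, 93555117 to 93564645), a partner protein of annexin A2, had the smallest p among the leading genes. It was at 14.4, 14.6 and 21.0 CPM in NMN tumours, against 49.7, 55.3 and 34.2 CPM in young tumours, a log2 difference of -1.42 ± 0.19 (limma adjusted p = 0.02). All 3 NMN libraries lay below all 3 young libraries. Has2, which makes hyaluronan, and Cd44, the main cell surface receptor for hyaluronan, were both among the 12. Has2 was at 9.45, 23.1 and 14.6 CPM in NMN tumours, against 44.1, 53.6 and 37.1 CPM in young tumours, and Cd44 was at 55.0, 94.0 and 110.1 CPM in NMN tumours, against 178, 187 and 145 CPM in young tumours. Tnc, which encodes the matrix glycoprotein tenascin-C, had a log2 difference of -1.56 ± 0.39 (limma adjusted p = 0.0381), and Col4a6, a chain of basement membrane collagen, had -1.71 ± 0.41 (limma adjusted p = 0.0352). The small GTPase gene Rhoc was at 25.9, 23.3 and 28.9 CPM in NMN tumours, against 60.1, 54.5 and 55.3 CPM in young tumours, and the caveolin gene Cav1 at 15.5, 18.3 and 27.0 CPM in NMN tumours, against 49.6, 62.5 and 31.6 CPM in young tumours. Cdkn2a, which encodes the cell cycle inhibitors p16 and p19, also fell and is described with the growth genes. Pdlim4, Leprel1, Stk32b and Prm1 completed the 12, with log2 differences of -1.19, -1.10, -1.10 and -1.57. Leprel1, Stk32b and Prm1 had means under 10 CPM in both groups.

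**Figure D2:**
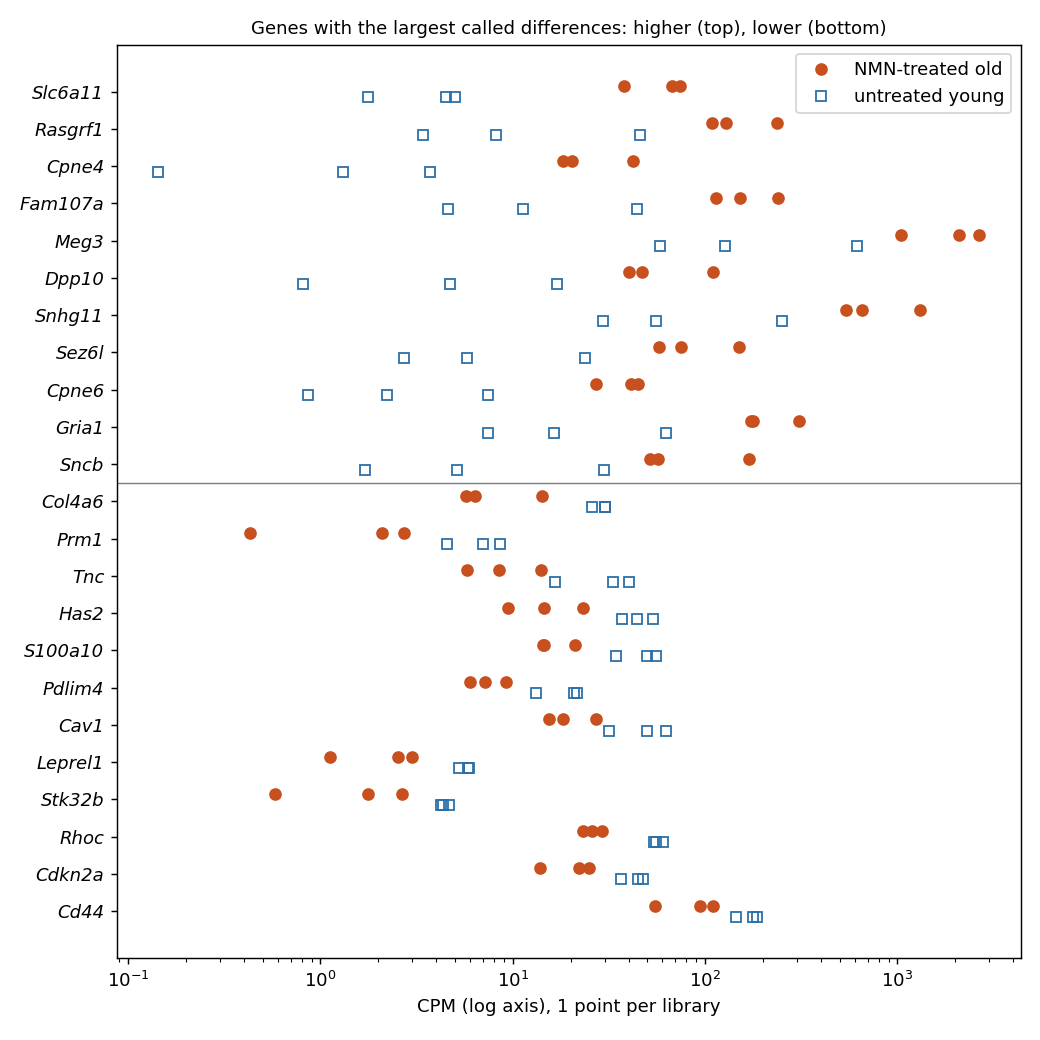
CPM of 11 of the 12 genes with the largest called increases (top) and the 12 with the largest called decreases (bottom), 1 point per library, on a log axis, for NMN-treated old (filled circles) and untreated young hosts (open squares). The points of the groups do not overlap for any gene shown, a condition of their choice, and the gaps are wider for the higher genes, with log2 differences of 3.33 to 3.70 against -1.02 to -1.71 for the lower genes.

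Most genes of GABA handling rose in NMN tumours. Of 8 genes of GABA synthesis, transport and breakdown, 8 had higher means and 6 rose, with a median log2 difference of 2.23, beside -0.0174 over all genes and 7.4% of all genes called higher. Among them were both GABA-synthesizing enzymes (Gad1 and Gad2), the vesicular transporter Slc32a1 and the plasma membrane transporters Slc6a11 and Slc6a13. Gad1 was at 107, 185 and 123 CPM in NMN tumours, against 14.1, 13.4 and 59.9 CPM in young tumours. Slc6a13, a transporter known from the meninges and other border tissues, was low throughout, at 3.55, 4.55 and 3.38 CPM in NMN tumours, against 0.227, 0.0476 and 0.597 CPM in young tumours. Its young values were near the limit of detection, and the log2 scale with 1 CPM added understates such a difference (1.92 ± 0.26, limma adjusted p = 0.02). The breakdown enzyme Abat was at 151 ± 19.6 CPM in NMN tumours, against 76.9 ± 21.1 CPM in young tumours, and missed the threshold (limma adjusted p = 0.054). The number of called genes in this list was 7 without young replicate 3, 3 in edgeR and 7 in DESeq2.

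Receptors gave the highest median of any list. Of 20 genes for GABA-A and glutamate receptor subunits, 15 rose and 0 fell, with a median log2 difference of 2.55. Gria1, a subunit of AMPA-type glutamate receptors, was at 306, 172 and 178 CPM in NMN tumours, against 16.3, 7.43 and 62.6 CPM in young tumours. Young replicate 3 was well above young replicates 1 and 2 and below every NMN library (log2 difference 3.33 ± 0.71, limma adjusted p = 0.0273). Among 25 voltage-gated and related channel genes, 16 rose and the median was 1.97. The potassium channel partner Kcnip1 had the smallest p of these, at 7.51, 7.86 and 10.5 CPM in NMN tumours, against 0.999, 0.286 and 2.05 CPM in young tumours (limma adjusted p = 0.0216), and Kcnc2, a fast delayed rectifier channel of interneurons, had a log2 difference of 3.16 ± 0.66. In edgeR only 1 receptor gene and 3 channel genes were called, against 14 and 19 in DESeq2.

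The machinery of transmitter release moved in the same direction. All 18 genes of the synaptic vesicle list had higher means and 11 rose, with a median log2 difference of 2.16. The number called was 2 in edgeR, 15 in DESeq2 and 16 in limma without young replicate 3. Syt1, the calcium sensor of release, was at 891, 365 and 315 CPM in NMN tumours, against 54.1, 33.5 and 192 CPM in young tumours. Snap25, a fusion protein, was at 998, 345 and 313 CPM in NMN tumours, against 45.7, 30.3 and 248 CPM in young tumours. NMN replicate 1 was the highest library for both. Slc17a6, the vesicular glutamate transporter of thalamic and other subcortical neurons, was highest in NMN replicate 3 instead, at 6.40, 11.7 and 22.4 CPM in NMN tumours, against 1.41, 0.429 and 1.19 CPM in young tumours. Scores of this list, the mean log2 deviation of its genes from the 6 libraries, were 1.83, 0.68 and 0.68 in NMN replicates 1 to 3, against -1.44, -1.66 and -0.088 in young replicates 1 to 3. The list median was 2.77 without young replicate 3 and 1.82 without NMN replicate 1. With the brain tissue score as covariate it was -0.10, but these genes are part of that score.

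Of 15 cytoskeletal and identity genes of neurons, 10 rose, among them the neurofilament chains Nefh, Nefm and Nefl. Nefh was at 18.9, 9.37 and 15.1 CPM in NMN tumours, against 2.63, 2.62 and 6.82 CPM in young tumours. The median log2 difference of the list was 2.19, and edgeR called 6. Celf4, a neuronal RNA-binding protein, was at 220.2, 147 and 173 CPM in NMN tumours, against 18.1, 15.05 and 54.3 CPM in young tumours. Genes that define the striatal projection neuron, the main cell of the injected region, gave a share of calls near that of all genes. Of 18 that passed the filter, 17 had higher means and 1 rose (5.56%, beside 7.4% of all genes), and the median was 0.84. That gene was Arpp21, a cAMP-regulated phosphoprotein, at 193, 105 and 127 CPM in NMN tumours, against 12.8, 8.71 and 72.8 CPM in young tumours. Ppp1r1b, which encodes DARPP-32 and is the usual marker of these neurons, was at 31.2, 13.5 and 52.4 CPM in NMN tumours, against 9.13, 7.52 and 62.9 CPM in young tumours, with overlapping groups (limma adjusted p = 0.577). The list score of young replicate 3 was 0.55, against 0.35, 0.032 and 1.12 in NMN replicates 1 to 3. Without young replicate 3, 6 of the 18 were called. Summed over the 20 marker genes, projection neuron RNA ranged from 589 to 969 CPM in NMN tumours and from 288 to 754 CPM in young tumours, so these markers were read in all 6 libraries.

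**Figure D3:**
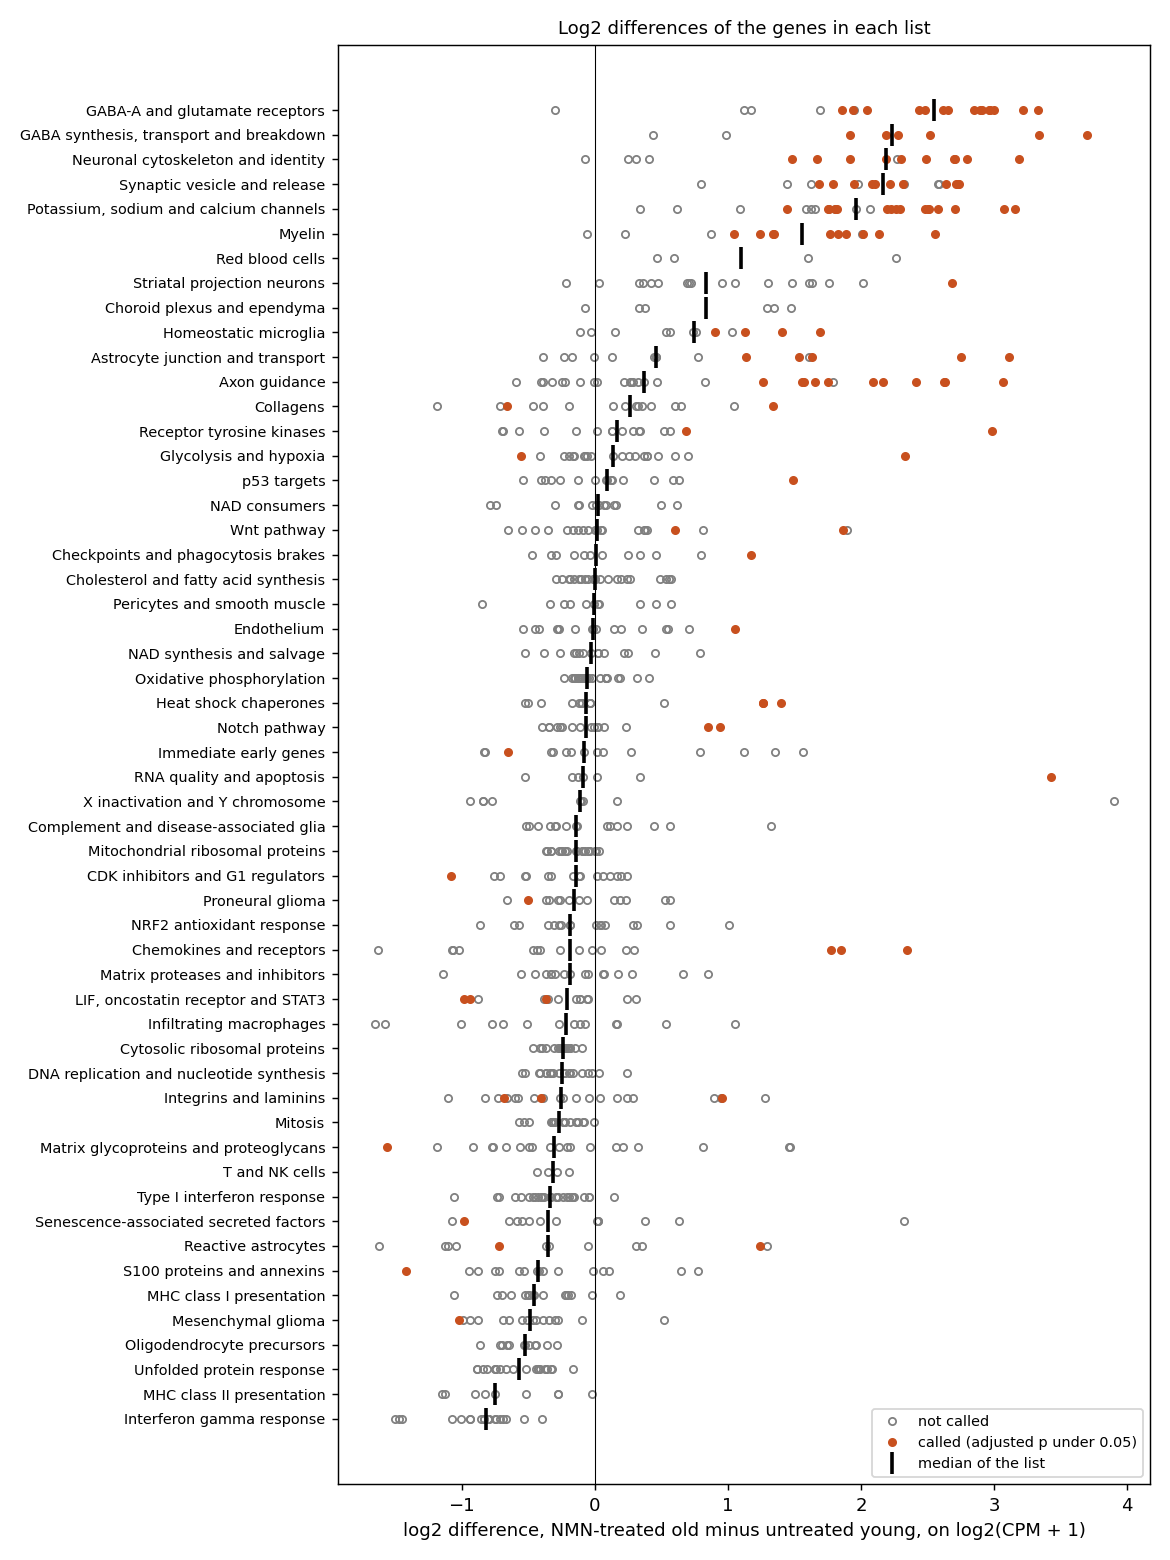
Log2 differences (NMN-treated old minus untreated young, on log2(CPM + 1)) of every gene that passed the filter, for lists with at least 4 such genes, ordered by the list median (black bars). Filled points are called genes, and the lists for receptors, GABA, neuronal cytoskeleton, synapse, channels and myelin lie farthest to the right, with medians of 2.55 to 1.55, while interferon gamma genes lie farthest to the left, with a median of -0.82 and 0 called genes.

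Immediate early genes, which neurons switch on with activity, did not follow the other neuronal genes. Of 15, 7 had higher and 8 lower means, 0 rose and 1 fell, with a median log2 difference of -0.084. The gene that fell was Fos, at 30.4, 25.1 and 24.9 CPM in NMN tumours, against 42.0, 48.0 and 37.98 CPM in young tumours (limma adjusted p = 0.043). Arc, a synaptic activity gene, was at 24.9, 7.08 and 9.64 CPM in NMN tumours, against 2.59, 4.29 and 5.97 CPM in young tumours, above the young libraries throughout but with NMN replicate 1 apart from the others (limma adjusted p = 0.16). Axon guidance genes were mixed, with 11 of 29 risen, 0 fallen and a median of 0.37, and edgeR called 5. The ephrin receptor gene Epha5 was at 48.8, 55.2 and 36.6 CPM in NMN tumours, against 6.08, 5.71 and 13.7 CPM in young tumours. The ephrins Efna5 and Efnb2, the receptor Epha3 and the semaphorin Sema3c rose as well, with log2 differences of 1.26 to 1.75.

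Myelin genes rose in NMN tumours. Of 14 that passed the filter, 13 had higher means and 10 rose, with a median log2 difference of 1.55, and edgeR called 4 of them and DESeq2 11. Ugt8a, which makes the myelin lipid galactosylceramide, was at 8.71, 9.65 and 10.6 CPM in NMN tumours, against 2.45, 1.14 and 3.15 CPM in young tumours (log2 difference 1.76 ± 0.30, limma adjusted p = 0.0216). The transferrin gene Trf was at 102, 165 and 108 CPM in NMN tumours, against 48.7, 48.7 and 45.1 CPM in young tumours. In Trf the 3 young libraries were close together. Mbp, a structural protein of the sheath, was at 922, 406 and 445 CPM in NMN tumours, against 114, 64.6 and 341 CPM in young tumours. In Mbp young replicate 3 was close to the lower NMN libraries, and the gene was not called (limma adjusted p = 0.0527). Genes of oligodendrocyte precursors had lower means without a call. All 12 means were lower, the median was -0.53, 0 were called in limma, edgeR and DESeq2, and 2 passed an unadjusted p of 0.05. Vcan, a proteoglycan of precursors and of glioma cells, was at 835, 850.1 and 778 CPM in NMN tumours, against 1109, 1104 and 1359.5 CPM in young tumours, and Pdgfra, the receptor that drives precursor growth, was at 247, 127 and 205 CPM in NMN tumours, against 261, 273 and 391 CPM in young tumours. The groups did not overlap in either, but the adjusted p was 0.147 and 0.194 in limma.

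Astrocyte genes were described in separate lists, for junctions and transport and for the reactive state. Of 15 junction and transport genes, 11 had higher and 4 lower means, 5 rose and 0 fell, and edgeR called 3. The median log2 difference was 0.46, and -0.092 with the brain tissue score as covariate. Slc4a4, a sodium bicarbonate transporter, was at 149.7, 147 and 155 CPM in NMN tumours, against 36.6, 52.1 and 57.5 CPM in young tumours. Gja1, which encodes connexin 43, was at 72.5, 79.5 and 71.8 CPM in NMN tumours, against 9.81, 7.29 and 14.8 CPM in young tumours. In both genes the 3 NMN libraries were close together and all 3 young libraries lay below them. Their log2 differences were 1.63 ± 0.22 and 2.75 ± 0.39 (limma adjusted p = 0.02 for both). Gjb6 (connexin 30), Aldh1l1, a folate enzyme used as an astrocyte marker, and Glul, the glutamine synthetase, also rose.

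Among 12 reactive astrocyte genes 4 had higher and 8 lower means, 1 rose and 1 fell, and the median log2 difference was -0.35. Gfap, the intermediate filament that marks reactive astrocytes and is also made by many glioma cells, was at 998, 1138 and 1268 CPM in NMN tumours, against 1789, 1959 and 3601 CPM in young tumours. All NMN libraries were below all young libraries, and young replicate 3 was far above the other young libraries (log2 difference -1.04 ± 0.33, limma adjusted p = 0.0748). Nes, which encodes nestin, an intermediate filament of progenitor and tumour cells, fell, at 147, 243 and 203 CPM in NMN tumours, against 323, 260.4 and 391 CPM in young tumours. Aspg, an asparaginase named among pan-reactive genes, rose at low levels, at 2.35, 4.55 and 4.67 CPM in NMN tumours, against 0.863, 0.333 and 2.22 CPM in young tumours. Choroid plexus and ependymal genes had 0 calls in limma and edgeR among 6 that passed the filter, 1 higher in DESeq2 and 1 at an unadjusted p under 0.05. Their sum ranged from 14.8 to 953 CPM in NMN tumours and from 12.7 to 142 CPM in young tumours.

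Genes of resting microglia rose in part. Of 12 homeostatic microglia genes, 10 had higher means, 4 rose and 0 fell, with a median log2 difference of 0.75. P2ry12, the purinergic receptor of resting microglia, was at 13.6, 13.6 and 10.3 CPM in NMN tumours, against 3.77, 2.71 and 6.35 CPM in young tumours (limma adjusted p = 0.0283). Cx3cr1, the fractalkine receptor, was at 40.9, 35.5 and 33.3 CPM in NMN tumours, against 18.9, 20.2 and 17.9 CPM in young tumours. The groups did not overlap in either gene, and the list median stayed between 0.57 and 0.83 over all alternatives, the brain tissue covariate included. Gpr34 and Siglech, further microglial receptors, rose too, with log2 differences of 1.13 ± 0.21 and 1.69 ± 0.46. With the brain tissue covariate 0 of the 12 genes were called. The log2 differences of P2ry12, Cx3cr1, Gpr34 and Siglech were 0.33, 0.64, 0.59 and 0.61 with it, and 1.40, 0.91, 1.13 and 1.69 without it. Summed over the 12 genes, microglial RNA was 358 to 398 CPM in NMN tumours and 234 to 300.4 CPM in young tumours. Genes of infiltrating macrophages had 0 calls among 14 in limma and in edgeR, 2 called lower in DESeq2, 1 higher and 1 lower at an unadjusted p under 0.05, and a median of -0.21. Ccr2, the chemokine receptor of entering monocytes, was at 0.784, 1.91 and 2.92 CPM in NMN tumours, against 13.3, 13.1 and 2.13 CPM in young tumours. Young replicate 3 was inside the range of the NMN libraries while the other young libraries were far above it, and without it 2 of the 14 were called lower. The brake on phagocytosis Sirpa rose, at 216, 125 and 115 CPM in NMN tumours, against 66.3, 57.1 and 69.9 CPM in young tumours, and was the 1 called gene among 12 checkpoint genes. Cd274, which encodes PD-L1, was at 9.82, 15.7 and 8.22 CPM in NMN tumours, against 18.1, 12.95 and 6.35 CPM in young tumours (limma adjusted p = 0.943).

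Complement and disease-associated glia genes had 0 calls among 16 in limma and edgeR, 2 higher in DESeq2, and 3 at an unadjusted p under 0.05. Cst7, a cystatin of disease-associated microglia, was at 10.9, 8.32 and 6.72 CPM in NMN tumours, against 2.68, 1.81 and 4.26 CPM in young tumours (limma adjusted p = 0.0748). T and NK cell genes were near the limit of detection. Only 4 of 17 passed the filter, 0 were called in limma, edgeR or DESeq2, with 0 at an unadjusted p under 0.05. Cd8a, the marker of cytotoxic T cells, was at 1.73, 2.26 and 1.92 CPM in NMN tumours, against 2.95, 2.76 and 2.13 CPM in young tumours, and the 17 genes summed to 6.07 to 12.8 CPM in NMN tumours and 5.71 to 19.5 CPM in young tumours. B and plasma cell genes did not pass the filter in any case. Of 16 chemokine and receptor genes 3 rose (18.8%, beside 7.4% of all genes). In health all 3 are made by cells of brain tissue, and their source in these tumours was not tested. Cxcl12 was at 12.8, 10.3 and 9.84 CPM in NMN tumours, against 3.00, 1.76 and 2.26 CPM in young tumours, and Cxcl14 was at 21.2, 13.1 and 13.1 CPM in NMN tumours, against 1.32, 1.67 and 4.43 CPM in young tumours. The log2 difference of Cx3cl1, the neuronal fractalkine, was 1.77 ± 0.41. The median of the list was -0.19.

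Interferon and antigen presentation genes had lower means in NMN tumours almost throughout, and 0 passed the test in limma. Of 26 type I interferon genes, the means of 25 were lower, with a median log2 difference of -0.33, 1 gene at an unadjusted p under 0.05 and, in edgeR and DESeq2, 0 and 2 genes called lower. Rsad2, an antiviral enzyme, was at 27.3, 24.3 and 21.8 CPM in NMN tumours, against 54.5, 38.2 and 33.6 CPM in young tumours (limma adjusted p = 0.107). The groups did not overlap in Rsad2. Ifit1, another antiviral effector, was at 39.5, 43.1 and 21.2 CPM in NMN tumours, against 48.1, 36.4 and 29.3 CPM in young tumours, with groups that overlapped. All 20 interferon gamma genes had lower means, with a median of -0.82, 0 calls in limma, edgeR and DESeq2, and 0 at an unadjusted p under 0.05. Gbp2, a guanylate-binding protein induced by interferon gamma, was at 39.0, 76.3 and 28.4 CPM in NMN tumours, against 248, 158 and 51.2 CPM in young tumours. Young replicate 3 lay among the NMN libraries, and young replicates 1 and 2 lay above them all.

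Among MHC class II genes all 9 had lower means, with a median log2 difference of -0.75 and 0 calls in limma, edgeR and DESeq2, and 0 at an unadjusted p under 0.05. H2-Ab1, a chain of the class II molecule, was at 8.87, 53.6 and 2.88 CPM in NMN tumours, against 106, 91.9 and 1.19 CPM in young tumours. Young replicate 3 had the lowest value of the 6 libraries and young replicates 1 and 2 the highest. For MHC class I and peptide loading genes 15 of 16 means were lower, the median was -0.46, and 0 were called in limma, edgeR and DESeq2, with 0 at an unadjusted p under 0.05. Nlrc5, the transactivator of class I genes, was at 18.8, 83.0 and 9.47 CPM in NMN tumours, against 161, 133 and 6.27 CPM in young tumours. The direction of the class I and class II medians turned with 1 library, young replicate 1, while that of the interferon gamma genes was kept whichever library was left out. Without young replicate 3 the medians were -1.88 for interferon gamma genes, -2.03 for class II and -1.04 for class I, and without young replicate 1 they were -0.29, 0.015 and 0.025. With the brain tissue score as covariate they were 0.88, 1.19 and 0.70, with the sign turned round. The part of tissue content in these levels was not tested further.

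**Figure D4:**
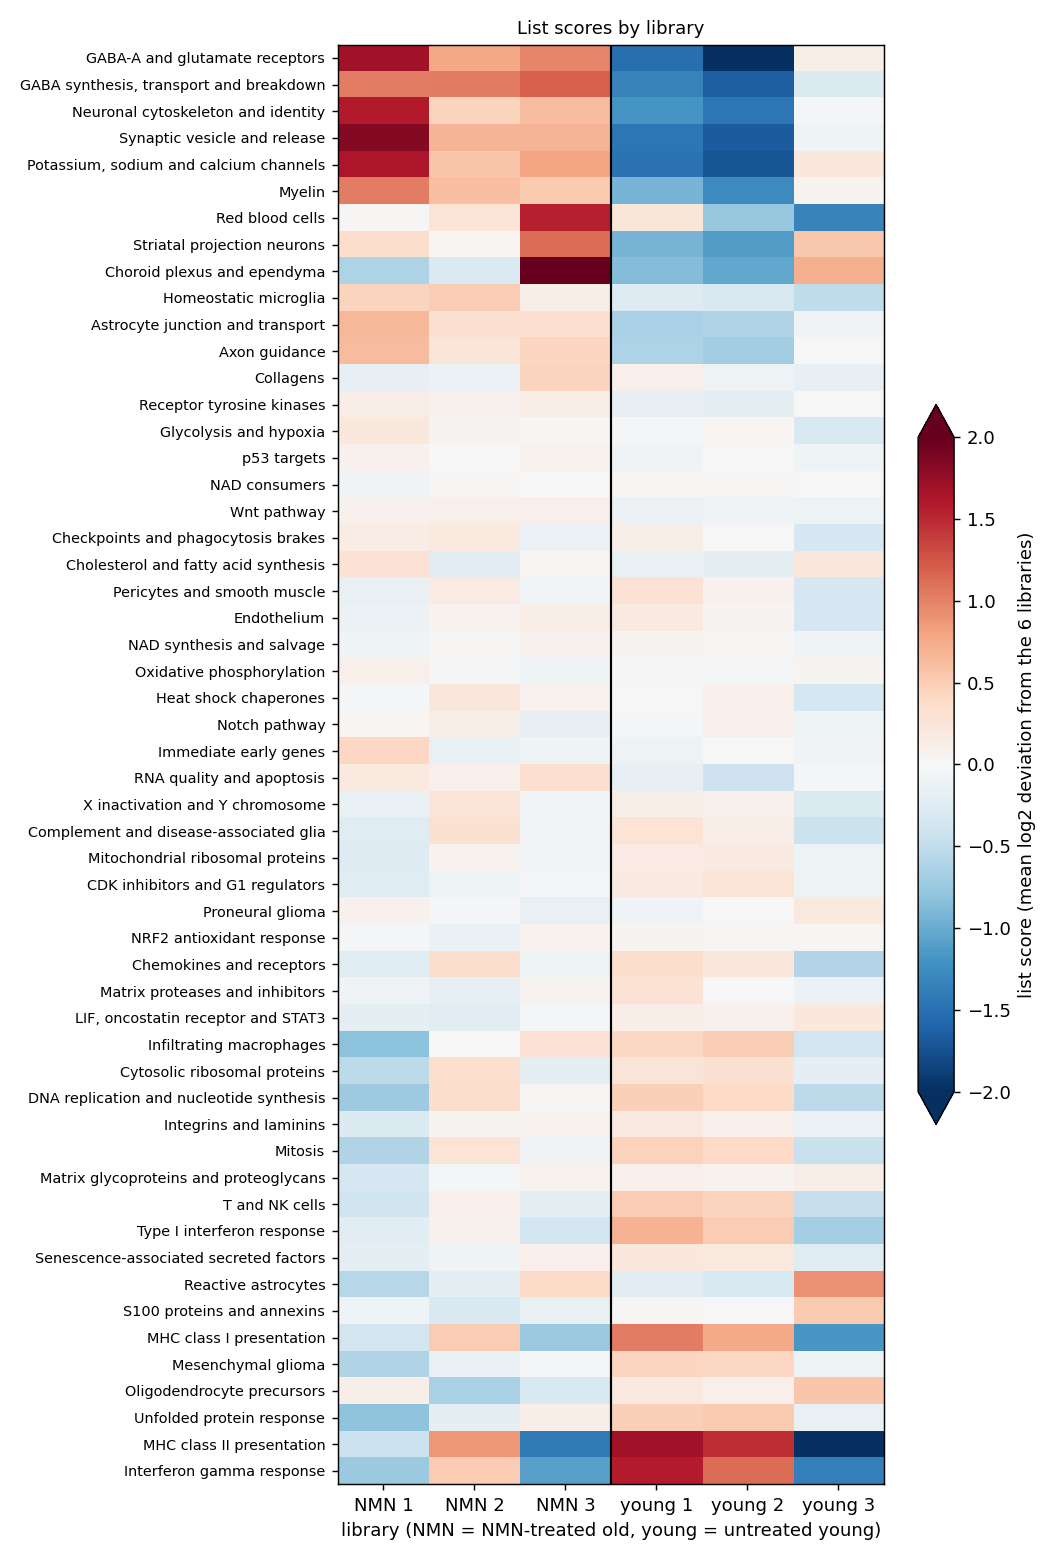
List scores in each library (mean log2 deviation of the genes of a list from the 6 libraries), NMN-treated old at the left and untreated young at the right, for lists with at least 4 genes, ordered by median log2 difference. Young replicates 1 and 2 are low in neuronal scores and high in interferon and MHC scores, young replicate 3 is above them in the neuronal scores and the lowest of the 6 in the interferon gamma and MHC scores, and NMN replicate 3 has the highest choroid plexus score.

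Genes of tumour cell state are set beside all genes, of which 7.4% were called higher and 1.09% lower. Of 14 proneural glioma genes 0 rose and 1 fell, and the median log2 difference was -0.16. Sox2, a transcription factor of neural stem and glioma cells, was at 148, 141 and 139 CPM in NMN tumours, against 185, 204 and 219.7 CPM in young tumours, a log2 difference of -0.50 ± 0.12 (limma adjusted p = 0.0312). The groups did not overlap. Mesenchymal glioma genes had 15 of 16 means on the lower side and a median of -0.49, and Cd44 was the 1 gene that fell. Tnfrsf12a, the receptor for the cytokine TWEAK, was at 7.14, 9.22 and 9.72 CPM in NMN tumours, against 14.9, 16.1 and 22.1 CPM in young tumours (limma adjusted p = 0.0789), and without young replicate 3, 4 of the 16 were called lower. With the brain tissue score as covariate the mesenchymal median was 0.0043. Among 16 receptor tyrosine kinase genes 2 rose (12.5%, beside 7.4% of all genes). Igf1r, the receptor for insulin-like growth factors, was at 161, 188 and 178 CPM in NMN tumours, against 113, 101 and 113 CPM in young tumours. Ntrk2, the BDNF receptor of neurons and astrocytes, was at 381, 219 and 276 CPM in NMN tumours, against 27.7, 15.9 and 96.5 CPM in young tumours.

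Lif, Stat3 and Socs3, 3 genes of LIF signalling, fell. LIF is a cytokine that signals through gp130 and JAK kinases to the transcription factor STAT3, whose target SOCS3 feeds back on the pathway. Of 14 genes in this list 3 fell, where 1.09% of all genes did so, and they were the ligand Lif, Stat3 and Socs3. Lif was at 2.02, 1.56 and 1.58 CPM in NMN tumours, against 4.59, 4.14 and 4.35 CPM in young tumours, a log2 difference of -0.98 ± 0.16 (limma adjusted p = 0.0216). Stat3 was at 163, 153 and 177 CPM in NMN tumours, against 209, 204 and 225 CPM in young tumours (log2 difference -0.37 ± 0.088, limma adjusted p = 0.0341). Socs3 was at 15.4, 11.0 and 18.7 CPM in NMN tumours, against 26.4, 22.3 and 41.4 CPM in young tumours (log2 difference -0.94 ± 0.24, limma adjusted p = 0.0392). In all 3 genes each NMN library was below each young library, although Lif was under 5 CPM throughout. DESeq2 called 4 genes of the list lower, edgeR 1 and limma without young replicate 3 called 2, and the direction of the 3 genes was kept with the brain tissue score as covariate. Bcl3, an NF-kB partner and target of STAT3, missed the threshold at 2.06, 4.32 and 4.96 CPM in NMN tumours, against 7.76, 7.00 and 7.59 CPM in young tumours (limma adjusted p = 0.0547). The list median was -0.21.

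The promoters of these 3 genes are shown because the genes moved together and because STAT3 is known to bind the letters TTCNNNGAA in target genes. The sequences are from RefSeq on GRCm38.p6, from 250 bases before to 50 after the start site, given 5′ to 3′ on the strand of the gene, with matches to TTCNNNGAA on either strand in capitals. Lif lies at chr11:4257318-4257617 on the plus strand, Stat3 at chr11:100939491-100939790 on the minus strand and Socs3 at chr11:117969317-117969616 on the minus strand.
Lif: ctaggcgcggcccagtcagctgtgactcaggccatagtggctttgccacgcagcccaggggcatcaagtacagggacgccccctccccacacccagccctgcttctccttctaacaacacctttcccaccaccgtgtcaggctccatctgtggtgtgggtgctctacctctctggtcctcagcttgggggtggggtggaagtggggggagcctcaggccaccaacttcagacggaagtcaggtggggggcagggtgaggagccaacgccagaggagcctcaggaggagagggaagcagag
Stat3: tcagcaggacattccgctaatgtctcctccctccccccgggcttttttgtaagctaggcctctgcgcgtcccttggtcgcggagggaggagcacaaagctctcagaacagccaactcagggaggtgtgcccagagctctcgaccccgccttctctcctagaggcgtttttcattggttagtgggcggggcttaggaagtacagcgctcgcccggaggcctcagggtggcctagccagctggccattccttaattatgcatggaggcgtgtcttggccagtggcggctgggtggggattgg
Socs3: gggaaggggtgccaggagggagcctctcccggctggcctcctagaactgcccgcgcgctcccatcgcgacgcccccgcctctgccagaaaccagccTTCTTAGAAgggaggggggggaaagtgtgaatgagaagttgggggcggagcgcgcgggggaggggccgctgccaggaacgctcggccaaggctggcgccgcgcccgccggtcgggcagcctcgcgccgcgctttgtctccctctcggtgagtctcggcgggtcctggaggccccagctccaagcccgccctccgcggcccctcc
The window of Socs3 held 1 match, beginning 154 bases before the start site, and those of Lif and Stat3 held 0. Over all 32851 promoter windows 8.3% held a match, and of 13 genes of the list with a window 1 did. A match describes letters in this window and does not show a site in use.

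Other growth and senescence genes are given beside the same shares of all genes, 7.4% called higher and 1.09% lower. Of 16 CDK inhibitor and G1 genes 1 fell, namely Cdkn2a (chromosome 4, 89274473 to 89294619), whose products restrain the cell cycle and accumulate in senescent cells. It was at 22.0, 13.9 and 24.9 CPM in NMN tumours, against 47.6, 44.9 and 36.6 CPM in young tumours, a log2 difference of -1.08 ± 0.23 (limma adjusted p = 0.0272), and the lowest young library of Cdkn2a, replicate 3, was above every NMN library. Its neighbour Cdkn2b was at 3.05, 3.89 and 4.75 CPM in NMN tumours, against 7.04, 6.38 and 4.73 CPM in young tumours, and Cdkn1a, the p53-induced inhibitor p21, was at 52.9, 21.7 and 34.4 CPM in NMN tumours, against 23.4, 23.3 and 47.9 CPM in young tumours, neither of them called (limma adjusted p = 0.126 and 0.739). Among senescence-associated secreted factors Lif fell and the other 13 were not called. Igfbp5, a binding protein for insulin-like growth factors, was at 161, 124 and 185 CPM in NMN tumours, against 40.8, 21.1 and 31.8 CPM in young tumours, and Igfbp3 was at 30.3, 23.2 and 61.9 CPM in NMN tumours, against 68.4, 81.9 and 76.2 CPM in young tumours. The libraries did not overlap for either, and the adjusted p was 0.0666 and 0.0528 in limma, where the wide spread of Igfbp5 in untreated old hosts (615 ± 703 CPM, SD, n = 3) entered the shared estimate. Of 16 p53 targets only Perp, a desmosomal protein, rose, at 2.19, 2.18 and 4.96 CPM in NMN tumours, against 0.318, 0.0476 and 0.980 CPM in young tumours.

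**Figure D5:**
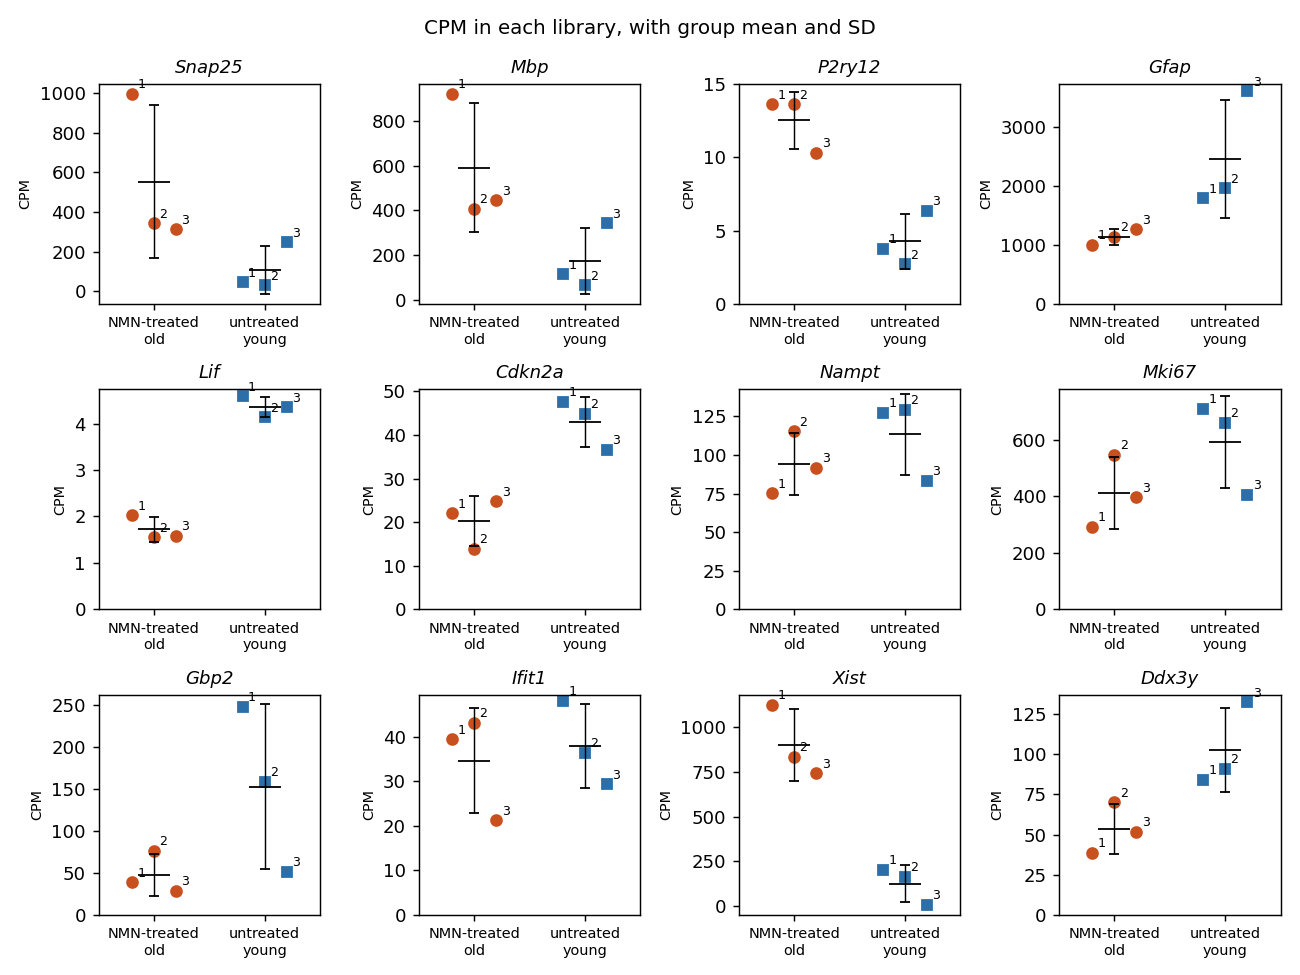
CPM in each library (numbered by replicate) for 12 genes, NMN-treated old at the left of each panel and untreated young at the right, with the group mean (horizontal bar) and SD (whiskers), n = 3 each. The groups are apart for Lif, Cdkn2a, P2ry12, Gfap, Xist, Ddx3y, Snap25 and Mbp. Young replicate 3 lies below but close to the NMN range for Snap25 and Mbp, and within it for Nampt, Mki67 and Gbp2.

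Proliferation genes showed lower means with no call. All 20 mitosis genes had lower means, with a median log2 difference of -0.27, 0 calls in limma, edgeR and DESeq2, and 1 at an unadjusted p under 0.05. Mki67, which marks cycling cells, was at 292, 548 and 397 CPM in NMN tumours, against 712, 661 and 406 CPM in young tumours (limma adjusted p = 0.311). Young replicate 3 fell inside the NMN range. The median was -0.55 without young replicate 3, -0.032 without NMN replicate 1 and 0.95 with the brain tissue score as covariate. Of 20 DNA replication genes 18 had lower means, and 0 were called in limma, edgeR and DESeq2, with 2 at an unadjusted p under 0.05. Tyms, the thymidylate synthase, was on the higher side, at 442, 389 and 454 CPM in NMN tumours, against 363, 361 and 362 CPM in young tumours (limma adjusted p = 0.188). S100 and annexin genes had 12 of 16 lower means and 1 call, S100a10, and Anxa2, which encodes its partner annexin A2, was at 10.0, 14.9 and 18.4 CPM in NMN tumours, against 24.3, 29.7 and 26.0 CPM in young tumours (limma adjusted p = 0.123).

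Matrix and vessel genes were called singly and in both directions. Of all genes 7.4% were called higher and 1.09% lower, and 3819 of 14806 had an unadjusted p under 0.05 in limma. Of 20 matrix glycoprotein genes 0 rose and 1 fell (Tnc), and of 17 protease and inhibitor genes 0 were called in limma and edgeR, 1 was called lower in DESeq2, and 3 had an unadjusted p under 0.05. Among 16 collagen genes Col12a1 rose, at 21.8, 15.9 and 24.9 CPM in NMN tumours, against 4.63, 6.71 and 13.3 CPM in young tumours, and Col16a1 fell, at 26.4, 32.6 and 43.8 CPM in NMN tumours, against 49.1, 58.0 and 54.1 CPM in young tumours. Col1a2, a chain of fibrillar collagen I, was at 9.33, 14.2 and 15.9 CPM in NMN tumours, against 9.17, 7.19 and 2.64 CPM in young tumours (limma adjusted p = 0.389). Of 22 integrin and laminin genes 2 fell and 1 rose. Those that fell encode integrins, the receptors through which cells hold the matrix. Itgb1, the shared beta 1 chain, was at 344, 374 and 375 CPM in NMN tumours, against 561, 593 and 602 CPM in young tumours (log2 difference -0.68 ± 0.14, limma adjusted p = 0.0271). Itgav, the alpha V chain, was at 154, 154 and 153 CPM in NMN tumours, against 201, 227 and 186 CPM in young tumours (log2 difference -0.40 ± 0.11, limma adjusted p = 0.0429). Both were abundant genes with tight groups, while Lama2, a laminin chain of vessel and other basement membranes, rose, at 16.8, 15.2 and 16.0 CPM in NMN tumours, against 7.31, 6.67 and 9.63 CPM in young tumours. Among 17 endothelial genes the 1 call was Abcb1a, the drug efflux pump of the blood-brain barrier, at 20.2, 20.3 and 22.8 CPM in NMN tumours, against 11.5, 7.67 and 10.1 CPM in young tumours (limma adjusted p = 0.0259). The pan-endothelial sum of the list was 229 to 259.7 CPM in NMN tumours and 189 to 273 CPM in young tumours. Genes of pericytes and smooth muscle had 0 calls among 11 in limma and edgeR, 1 lower in DESeq2 and 2 at an unadjusted p under 0.05, and the contractile gene Acta2 was at 4.99, 4.71 and 4.92 CPM in NMN tumours, against 12.0, 10.5 and 6.82 CPM in young tumours (limma adjusted p = 0.0631).

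The enzymes that handle NMN and NAD showed no called change. NMN is turned into NAD by the NMNAT enzymes, and the cell's own NMN comes from nicotinamide through NAMPT. Of 22 genes of NAD synthesis and salvage 15 passed the filter, 7 with higher and 8 with lower means, a median log2 difference of -0.031 and 0 calls in limma, edgeR and DESeq2, with 1 at an unadjusted p under 0.05. Nampt was at 75.2, 116 and 91.7 CPM in NMN tumours, against 127, 129 and 83.3 CPM in young tumours (log2 difference -0.26 ± 0.20, limma adjusted p = 0.446). Nmnat2, the neuronal NMNAT, was at 154, 57.1 and 98.2 CPM in NMN tumours, against 40.05, 42.5 and 96.2 CPM in young tumours (log2 difference 0.79 ± 0.42, limma adjusted p = 0.269), and Nmnat1, the nuclear form, at 2.93, 2.65 and 2.50 CPM in NMN tumours, against 4.77, 4.48 and 2.51 CPM in young tumours. Groups overlapped in all 3 genes. Slc12a8, which has been described as an NMN transporter, was low, at 2.11, 2.29 and 2.21 CPM in NMN tumours, against 1.86, 1.33 and 1.92 CPM in young tumours. Of 14 NAD-consuming enzymes 0 were called in limma and edgeR, and 1 was called higher in DESeq2. Of these enzymes 4 had an unadjusted p under 0.05, beside 3819 of all 14806 genes. Sarm1, the axonal NAD hydrolase, was at 20.9, 17.0 and 16.7 CPM in NMN tumours, against 11.3, 12.2 and 11.0 CPM in young tumours, and Cd38, the ectoenzyme that breaks down NAD and NMN, at 2.97, 5.76 and 7.97 CPM in NMN tumours, against 9.76, 10.3 and 8.27 CPM in young tumours. The libraries did not overlap for either, with adjusted p of 0.0548 and 0.124 in limma. Sirt3, the mitochondrial sirtuin, was at 12.2, 9.06 and 9.64 CPM in NMN tumours, against 6.86, 7.00 and 6.95 CPM in young tumours (limma adjusted p = 0.16).

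In the lists of energy and lipid metabolism only Ndrg1 and Pfkfb3 were called in limma, where 7.4% of all genes were called higher and 1.09% lower. None of 23 oxidative phosphorylation genes was called in limma or edgeR, 1 was called higher in DESeq2, 2 had an unadjusted p under 0.05, and the median log2 difference was -0.061. Among them Sdha, a subunit of succinate dehydrogenase, came nearest, at 208, 188 and 156 CPM in NMN tumours, against 143, 137 and 132 CPM in young tumours (limma adjusted p = 0.0672). Among 21 glycolysis and hypoxia genes Ndrg1 rose, at 42.0, 33.7 and 35.0 CPM in NMN tumours, against 5.63, 2.76 and 16.0 CPM in young tumours, and Pfkfb3, which sets the level of the main activator of phosphofructokinase, fell, at 82.8, 91.2 and 92.2 CPM in NMN tumours, against 136, 161 and 101 CPM in young tumours. Ndrg1 is a hypoxia gene that is also abundant in oligodendrocytes. Its young libraries had replicate 3 highest and replicate 2 lowest, an order also seen in Mbp, Snap25, Gria1 and Rasgrf1. The cell source of Ndrg1 RNA was not tested. The 22 cholesterol and fatty acid synthesis genes had 0 calls in limma, edgeR and DESeq2, with 2 at an unadjusted p under 0.05. The 17 NRF2 target genes had 0 calls in limma, edgeR and DESeq2. Of them 5 had an unadjusted p under 0.05, beside 3819 of all 14806 genes.

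Genes of protein quality control gave 3 calls in limma, all among heat shock genes. Of all genes 7.4% were called higher and 1.09% lower. All 20 genes of the unfolded protein response, which raises folding capacity in the endoplasmic reticulum, had lower means, with a median log2 difference of -0.57. None passed in limma or edgeR, 3 were called lower in DESeq2, and 6 were called lower in limma without young replicate 3. An unadjusted p under 0.05 was reached by 9 of the 20, beside 1174 of all 14806 genes on the lower side. Hspa5, the chaperone BiP, was at 345, 439 and 691 CPM in NMN tumours, against 931, 1035 and 685 CPM in young tumours (log2 difference -0.88 ± 0.25, limma adjusted p = 0.0565). NMN replicate 3 and young replicate 3 had nearly the same level. With the brain tissue score as covariate the median of the list was 0.36. Of 14 cytosolic heat shock genes 4 had higher and 10 lower means, with a median of -0.066, and 3 rose, namely Bag3, Hspa1a and Hspb8, which encode a co-chaperone, an inducible HSP70 and the small heat shock protein that acts with BAG3 in selective autophagy. Bag3 (chromosome 7, 128523583 to 128546981) was at 5.65, 4.32 and 6.13 CPM in NMN tumours, against 1.09, 1.76 and 2.17 CPM in young tumours (log2 difference 1.26 ± 0.19, limma adjusted p = 0.021). Hspb8 was at 7.47, 7.62 and 8.97 CPM in NMN tumours, against 2.41, 1.14 and 4.43 CPM in young tumours. Hspa1a was at 8.75, 4.16 and 4.38 CPM in NMN tumours, against 1.32, 2.43 and 1.45 CPM in young tumours, and Hspa1b, a nearly identical copy, was at 4.87, 3.19 and 1.96 CPM in NMN tumours, against 5.72, 10.4 and 1.71 CPM in young tumours. How reads were shared between these copies is uncertain. All 22 cytosolic ribosomal protein genes had lower means, with a median of -0.24, 0 calls in limma, edgeR and DESeq2, and 0 at an unadjusted p under 0.05, and Rplp0, a protein of the ribosomal stalk, was at 626, 1213 and 853 CPM in NMN tumours, against 1359, 1345 and 925 CPM in young tumours. Mitochondrial ribosomal genes had 17 of 20 lower means, 0 calls in limma and edgeR, 1 lower in DESeq2, and 1 at an unadjusted p under 0.05.

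In the Wnt pathway 2 of 21 genes rose (9.52%, beside 7.4% of all genes), the secreted inhibitor Sfrp1 and the ligand Wnt3. Sfrp1 was at 5.24, 4.78 and 10.3 CPM in NMN tumours, against 0.636, 0.476 and 2.47 CPM in young tumours. In the Notch pathway 2 of 16 rose (12.5%, beside the same 7.4%), the ligand Jag2 and the effector Heyl. Jag2 was at 16.7, 9.10 and 12.7 CPM in NMN tumours, against 5.81, 6.76 and 6.91 CPM in young tumours. Heyl was at 5.37, 2.57 and 3.71 CPM in NMN tumours, against 1.54, 1.86 and 1.07 CPM in young tumours. The medians were 0.018 and -0.069 on the log2 scale, near that of all genes.

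Genes of the sex chromosomes did not follow the labels, which give all hosts as female. Xist, the RNA that coats the inactive X chromosome, was at 1127, 834 and 742 CPM in NMN tumours, against 202, 164 and 5.33 CPM in young tumours. The groups did not overlap, and young replicate 3 was far below the rest of these 6 libraries (limma adjusted p = 0.186). Untreated old hosts were at 1.88, 2.76 and 380 CPM in replicates 1 to 3 (128 ± 218 CPM, SD, n = 3). Replicates 1 and 2 of that group were thus below young replicate 3. The Y-linked genes Ddx3y, Uty, Eif2s3y and Kdm5d were read in all 6 libraries. Ddx3y was at 38.8, 70.1 and 51.8 CPM in NMN tumours, against 84.0, 91.0 and 132 CPM in young tumours. All 4 were lower in each NMN library than in each young library, as were 1606 of all 14806 genes (10.8%). The log2 differences of the 4 were -0.94 to -0.77, with limma adjusted p of 0.102 to 0.278. Being all Y-linked, these genes are not independent observations. The sources used here do not give the sex of the tumour line. The part of tumour content in these levels was not tested.

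Levels in the other old hosts are given for scale, without a test, since all contrasts share these libraries. Slc6a11 averaged 59.9 ± 19.4 CPM in NMN-treated, 19.0 ± 3.80 CPM in untreated and 28.6 ± 14.1 CPM in parabiosis old hosts, and 3.76 ± 1.75 CPM in young hosts (SD, n = 3 each). Gja1 averaged 74.6 ± 4.28, 35.3 ± 10.0 and 48.1 ± 31.6 CPM in the same old groups, and 10.6 ± 3.84 CPM in young hosts. For both, every group of old hosts had a mean above that of young hosts. Lif averaged 1.72 ± 0.261, 2.17 ± 0.172 and 2.47 ± 0.582 CPM in the old groups, and 4.36 ± 0.222 CPM in young hosts. S100a10 averaged 16.7 ± 3.78, 23.9 ± 1.35 and 14.6 ± 1.19 CPM in the old groups, and 46.4 ± 10.9 CPM in young hosts. Cdkn2a averaged 20.3 ± 5.68, 36.7 ± 9.36 and 34.2 ± 4.36 CPM in the old groups, and 43.0 ± 5.75 CPM in young hosts. P2ry12 averaged 12.5 ± 1.91, 10.7 ± 3.91 and 10.4 ± 2.05 CPM in the old groups, and 4.28 ± 1.87 CPM in young hosts.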

How the data were processed

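Total RNA of tumour tissue was depleted of ribosomal RNA and sequenced as stranded paired ends of 150 bases, per the labels' protocols. Per the submitters' processing notes, RSEM 1.2.15, Bowtie2 2.1.0, edgeR and FastQC were used, with the builds mm10 and GRCm38. The authors deposited 1 table of CPM values with TMM scaling, 24054 rows by 12 libraries. RSEM distributes ambiguous reads, which leaves near-identical genes uncertain. Of the rows, 27 carried a date in place of a symbol and 3064 were at 0 in all 12 libraries. Dividing each deposited CPM value by the smallest above 0 in its library gave a whole number (tolerance 0.01) in 100% of cases, taken as recovered reads.

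Values were converted to log2(CPM + 1), which understates changes of low genes. The filter (1 CPM or more in 3 or more of the 6 libraries) kept 14806 genes. A limma 3.58.1 model with a variance trend (R 4.3.3) gave each of the 4 groups a mean over all 12 libraries, and p-values were adjusted over the kept genes by the Benjamini-Hochberg method, called at 0.05. edgeR 4.0.16 (quasi-likelihood) and DESeq2 1.42.0 were run on the recovered reads. The series gives 3 mice per group, so each library was taken as 1 mouse.

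The 57 gene lists (939 entries, 865 kept) were described by counts and medians. The members and the lists were chosen with earlier results of these data known. Named genes were the 12 called genes per direction with the largest difference, no overlap between groups and 2 CPM or more as the mean of the higher group, then up to 5 genes per list by smallest p, and 19 genes always reported. Abat, Gad2, Slc12a8 and Hspa1b were named after their values were seen. Unnamed gene models were left out, and a few genes the rule names are not reported here. Coordinates and promoters are from RefSeq (GRCm38.p6). The alternatives were another pseudocount, filter, scaling, variance model, test, set of libraries, a replicate term and a brain tissue covariate.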

Additional observations from a re-analysis of the deposited data

How the results depend on the processing

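With the pseudocounts 0.5 and 0.1, the filter on all 12 libraries, the CPM minimum of 5, median-ratio scaling, no variance trend and the robust prior, both counts stayed within 1.5 times those reported. Without a filter 94 genes were called lower, and with quantile normalization, which moved the median of all genes to -0.155 on the log2 scale, 353 were. With the 6 libraries alone limma called 28 higher and 2 lower. On recovered reads edgeR called 392 and 58, of which 391 and 58 were among those reported, and DESeq2 called 1711 and 583. With the brain tissue score as covariate 0 and 0 were called, and Arpp21, Glul, Snap25, Sncb and Syt1 changed sign, to log2 differences of -0.306, -0.182, -0.407, -0.346 and -0.0531. Leaving out each library in turn gave 0 to 1727 genes called higher and 0 to 416 called lower. The edgeR fit without young replicate 3, chosen after seeing the data, gave 1747 and 374. The causes of these shifts were not tested, and fits with a library left out also had fewer libraries.

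The replicate numbers were not taken as pairs. The correlations of same-numbered deviations from the group means were -0.521, 0.604 and -0.0926. With 3 libraries per group these cannot decide whether samples were paired. A fit with the replicate number as a block called 1261 genes higher and 140 lower. For genes named in the text, 257 of the results under other settings and 368 of those with a library left out kept their direction and lost their call. Genes under about 0.143 CPM, the value of 3 reads in the shallowest library, were not detectable at this depth.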
